A study of Mus musculus with 12 samples.

Results

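The 100 transcripts described here are ones that the array design lists as long noncoding RNAs and whose array signal was much lower in mouse liver 12 h after partial hepatectomy than at 0 h. They were chosen by measured values: among the 5268 probes of the authors' table whose identifier starts with AK or uc0, each probe was assigned to the time of its largest change against 0 h, and the 100 probes assigned to 12 h with the most negative change were taken. They make up 1.9% of those probes. Of the 5268, 2852 were assigned to 12 h, and 901 of these were lower than at 0 h. The rule used the 1.5, 12 and 24 h differences from 0 h, so these differences are given below as a description, with no test of the 100.

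All samples were liver of male C57BL/6 mice, 6 weeks of age, with no genetic change named, from which 2/3 of the liver had been removed. Groups were 3 mice each at 0, 1.5, 12 and 24 h after surgery, with 1 array taken as 1 mouse, and RNA was read on a 1-colour array with probes for messenger RNAs and long noncoding RNAs. The labels name no sham-operated mice and no time of day, so surgery and hours on the clock cannot be told apart. In whole liver, fewer cells of a type and less RNA per cell cannot be told apart either.

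Long noncoding RNAs are transcribed and often spliced and polyadenylated like messenger RNAs but carry no long open reading frame. Their level follows from transcription and from decay, in which the nuclear exosome, decapping followed by 5′-to-3′ digestion and nonsense-mediated decay take part. After partial hepatectomy the hepatocytes that remain, quiescent until then, pass through a priming phase and re-enter the cell cycle. AK identifiers belong to cloned mouse complementary DNAs and uc0 identifiers to a gene set predicted from such sequences. The array design counts them as noncoding, and none of the 100 matched a gene symbol in the reference table, so each is given by its identifier.

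Levels are log2 processed spot signals set relative to each array's 75th percentile, so 0 is that percentile and a difference of 1 is a doubling. The 75th percentile signal was 428.5 to 583.7 on 11 arrays and 6018 on 24 h replicate 2, which also sat on a slide of its own and stood apart from the others. The rule left that array out, and 24 h values below are from replicates 1 and 3 unless stated. Arrays lay on 4 slides: slide 1 held the 0 h arrays and 1.5 h replicate 1, slide 2 held 1.5 h replicates 2 and 3 with 12 h replicates 1 and 2, and slide 3 held 12 h replicate 3 with 24 h replicates 1 and 3. No slide held both 12 h and 0 h arrays. Hepatocyte markers were bright at 0 h, none of the 7 measured lying below the 81.2nd percentile of all probes.

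The 100 comprised 51 AK and 49 uc0 transcripts, and 51.0% AK stands beside 56.8% among all 5268. On the authors' log2 values, their change at 12 h ran to -2.08 for the 100th. The last inside were AK032643 at -2.083, uc008zgs at -2.081 and AK009518 at -2.080. Just outside lay uc007umf at -2.080, uc007huw at -2.078 and uc009bey at -2.075, so the list ends in a continuum. All 100 were read on 1 spot each and were well above background on all 12 arrays.

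That last property follows from the source of the list. Every one of the 20271 probes of the authors' table was well above background on all 12 arrays, so a transcript that dropped out of detection at 12 h could not enter. Among AK and uc0 probes, 6349 were well above background on all 0 h arrays, and 603 of these (9.5%) were not so on all 12 h arrays. Outside the authors' table, 63 such probes had a 12 h change below the median of the 100. The most negative was AK018558, picked after its values were seen, at -4.85, -4.41 and -4.54 in the 12 h livers, against 2.88, 3.16 and 2.55 in the 0 h livers. It was well above background on 2 of the 3 12 h arrays. Of all spots, 85.4%, 85.0% and 63.6% were well above background on 12 h replicates 1, 2 and 3, and 62.8% to 70.4% on the 0 h arrays. The part of 12 h replicate 3 in the count of 603 was not tested.

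On the 75th-percentile scale the differences of the 100 transcripts, 12 h minus 0 h, ran from -4.98 to -1.72 log2 units with a median of -2.27. Of the 100, 6 lay below -4, 11 between -4 and -3, 58 between -3 and -2 and 25 at -2 or above. The median of all 5268 AK and uc0 probes was 0.45 in the same direction of subtraction, and that of all 31168 probes kept was 0.42. The typical probe was thus slightly higher at 12 h on this scale while these 100 were lower. At 1.5 h the median difference of the AK and uc0 probes from 0 h was 0.015 on slide 1 and 0.24 on slide 2. Slide 2 also held 12 h replicates 1 and 2, and the part of the slide in the higher 12 h medians was not tested.

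The median level of the 100 was -2.32, -1.92 and -2.34 on the 12 h arrays, against 0.55, 0.42 and 0.11 on the 0 h arrays. All 100 had every 12 h array below every 0 h array, a pattern that 20.8% of all probes kept also had. The gap between the lowest 0 h and the highest 12 h array exceeded 1 log2 unit in 86 transcripts and was smallest in uc007blh, at 0.11. In the limma fit over all probes, 95 of the 100 passed as lower (adjusted p under 0.05), where 8.26% of all probes and 5.08% of the AK and uc0 probes kept passed as lower and 7.06% of all probes as higher. Because that contrast chose the 100, nothing is read from these counts. With slide as a block in the fit, 42 of the 100 passed, beside 2.02% of all probes as lower. In that fit the contrast runs through the 1.5 h arrays, since no slide held both 12 h and 0 h arrays.

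**Figure D1:**
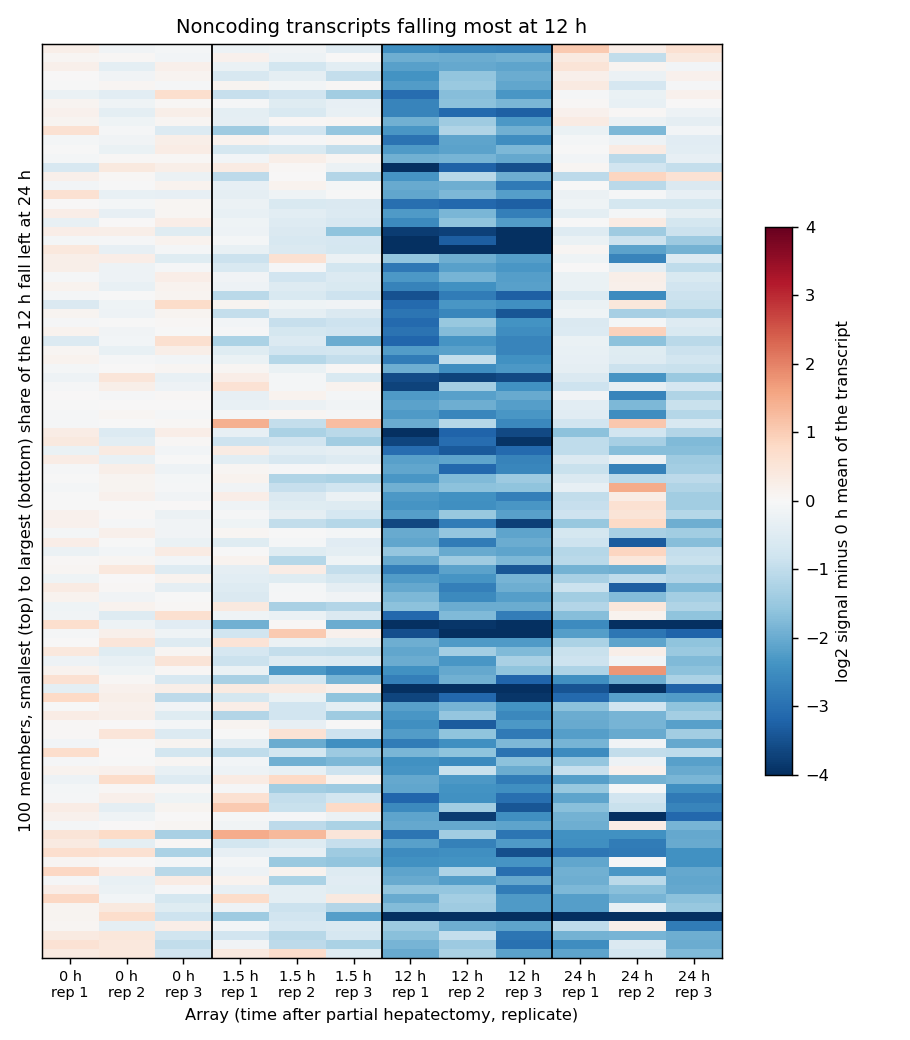
Heat map of the 100 transcripts (rows) on the 12 arrays (columns, by time and replicate), as log2 signal minus the transcript's own 0 h mean; blue is lower. The 12 h arrays are blue in every row, and 24 h ranges from near the 0 h level at the top to the 12 h level at the bottom.

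At 0 h the transcripts spanned a wide range of signal. Their 0 h levels ran from -2.50 to 5.67 with a median of 0.37, and the 5268 AK and uc0 probes had a median of -1.43. At 12 h the median of the 100 was -2.27, below the -1.14 of the larger set. Both are signals of different probes, which also depend on each probe, and a large fall above background needs a bright start, so no order of RNA amounts is read from them. The lowest 12 h signal of any of the 100 was 1.30 log2 units above the median of that array's negative controls.

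The transcript with the most negative change was uc008gmb. It was at -4.63, -2.65 and -3.95 in the 12 h livers, against 1.92, 1.02 and 0.77 in the 0 h livers. The groups were more than 3 log2 units apart, and the 12 h livers differed among themselves more than the 0 h livers did (-3.74 ± 1.00, against 1.24 ± 0.60, SD, n = 3 each). This is a 31.5-fold lower signal at 12 h. At 24 h it stood at -1.27 and -2.77, so 65.4% of the fall was left.

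uc007ana was lower by 27.7-fold, and its 12 h arrays disagreed most among the 12 transcripts with the most negative change. It was at -5.43, -2.43 and -3.91 in the 12 h livers, against 0.81, 0.81 and 0.99 in the 0 h livers. The 0 h livers were nearly equal and the 12 h livers spread over 3 log2 units, yet no array overlapped. By 24 h it was at 0.60 and -0.57, with 17.8% of the fall left.

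uc009nzu, which had the widest gap of all, was bright before surgery and tightly grouped at 12 h. Its levels were -0.82, -0.96 and -1.22 in the 12 h livers, against 4.27, 3.52 and 3.76 in the 0 h livers, a 28.9-fold lower signal. At 1.5 h it was still at 3.55, 3.26 and 3.16. The 24 h livers differed, at 3.92 and 1.96, the first within the 0 h range and the other below it.

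AK030382 moved early and did not come back. In order of time its means were 0.98 at 0 h, -0.48 at 1.5 h, -3.34 at 12 h and -3.48 at 24 h. Its 24 h livers, at -3.60 and -3.35, lay among the 12 h values of -3.15, -3.25 and -3.62. It was the one transcript among the 12 most negative whose 24 h mean was below its 12 h mean.

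AK047204 was high and steady through 1.5 h, at 3.94, 3.93 and 3.77, and then very low at 12 h. It was at -0.67, -1.06 and -0.93 in the 12 h livers, against 3.17, 3.73 and 3.81 in the 0 h livers (-0.89 ± 0.20, against 3.57 ± 0.35, SD, n = 3 each), 22.0-fold lower. At 24 h it was at 0.12 and 0.35, far below the 0 h livers. uc008eju had a similar course, at -0.67, -1.46 and -1.69 in the 12 h livers, against 2.80, 3.05 and 2.68 in the 0 h livers, with 65.6% of the fall left at 24 h.

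AK050122 and AK050399 returned most fully among the 12. AK050122 was at -3.42, -3.37 and -3.96 in the 12 h livers, against 0.65, 0.60 and -0.12 in the 0 h livers. At 24 h, at -0.14 and -0.49, it was just below its lowest 0 h liver. AK050399 was at -0.58, 0.15 and -0.13 in the 12 h livers, against 2.76, 3.79 and 3.63 in the 0 h livers, and 12.1% of the fall was left at 24 h.

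The other 4 of the 12 had an intermediate return. uc008hij, uc008bun and uc007cpz were lower at 12 h by 13.7-, 12.4- and 11.7-fold and uc008gqn by 3.40 log2 units, and between 28.2% (uc008bun) and 51.1% (uc008gqn) of the fall was left at 24 h. uc008bun was the tightest, at -2.92, -3.06 and -2.98 in the 12 h livers, against 0.45, 1.13 and 0.34 in the 0 h livers. In uc008gqn the 24 h arrays did not agree, at -1.05 and -1.48 on replicates 1 and 3 and 1.26 on replicate 2, above every 0 h array.

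**Figure D2:**
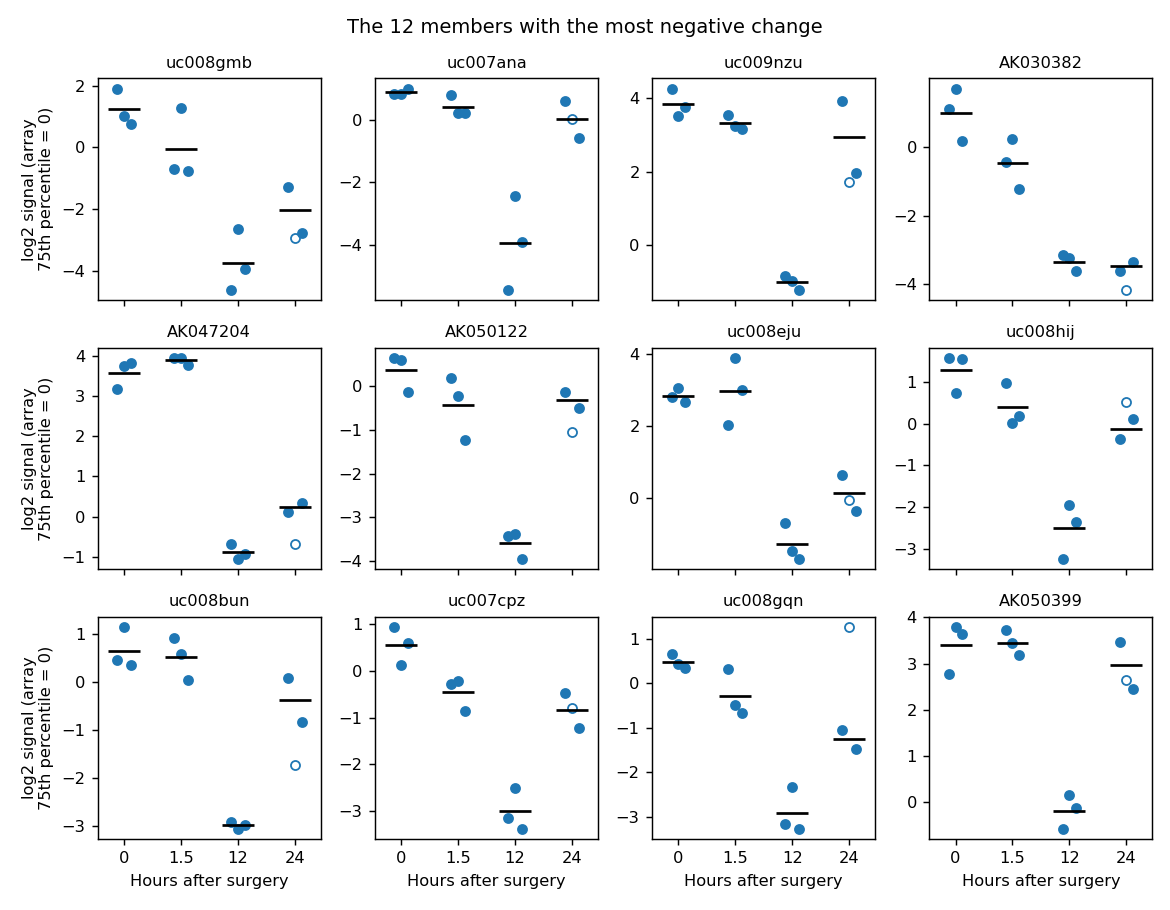
Levels (log2, 75th percentile of the array = 0) of the 12 transcripts with the most negative change at 0, 1.5, 12 and 24 h after surgery; points are arrays, bars are means, and the open point is 24 h replicate 2, left out of the 24 h mean. In every panel the 12 h arrays lie below all 0 h and 1.5 h arrays, while the 24 h arrays range from the 12 h level (AK030382) to near the 0 h level (AK050399).

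The brightest of the 100 at 0 h were AK050412, AK012110 and uc009nhh. AK050412 was at 3.20, 2.35 and 3.38 in the 12 h livers, against 5.71, 5.70 and 5.61 in the 0 h livers, 6.48-fold lower. AK012110 was uneven at 12 h, at 1.90, 4.23 and 3.19 in the 12 h livers, against 5.55, 5.84 and 5.4 in the 0 h livers. uc009nhh was the most even of these 3, at 2.86, 2.76 and 2.89 in the 12 h livers, against 5.21, 5.19 and 5.22 in the 0 h livers. The dimmest were uc007gqh, uc007hry and uc008vse, whose 0 h means were -2.50, -2.08 and -2.04 and whose differences at 12 h were -1.73, -1.81 and -1.87.

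At 1.5 h most of the 100 were already slightly lower. The median difference from 0 h was -0.44 (range -1.71 to 1.09), against 0.18 for all AK and uc0 probes. Of the 100, 87 were below their 0 h mean, 12 of them by more than 1 log2 unit, where 36.1% and 0.968% of all AK and uc0 probes were. In 30 every 1.5 h array lay below every 0 h array, as in 9.26% of all probes kept. The rule used this contrast too, so nothing is read from these counts. The most negative were AK134159 at -1.71, AK011216 at -1.61, AK030382 at -1.47 and AK051442 at -1.31. At the other end uc007blh was higher by 1.09 and uc008xkb by 0.56. uc007blh stood at 1.27, 1.51 and -0.55 at 0 h, at 2.23, 2.04 and 1.22 at 1.5 h, at -2.17, -0.66 and -2.18 at 12 h and at -1.69 and -1.31 at 24 h.

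The early difference moved with the slide in some transcripts. In 13 of the 100, 1.5 h replicate 1 on slide 1 was higher than the mean of 1.5 h replicates 2 and 3 on slide 2 by more than 1 log2 unit, which held for 1.33% of all AK and uc0 probes. The opposite split held for 2 of the 100, uc008eju and uc008zgs, and for 8.31% of those probes. AK134159 showed the split toward slide 1 most: it was at -0.96, -3.01 and -3.28 at 1.5 h, against -0.57, -0.88 and -0.67 at 0 h. Its 12 h levels, -3.15, -2.76 and -2.33, were on average no lower than those on slide 2 at 1.5 h. On 24 h replicate 2, alone on slide 4, it was at 1.07, above all 0 h arrays. AK011216, AK018420 and AK020642, the last 2 picked after their values were seen, split the same way, by 1.86, 1.76 and 1.61. The part of the slide in these differences was not tested.

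Since no slide held both 12 h and 0 h arrays, comparisons within a slide were made for all 100 with the other times. On slide 2, 12 h minus 1.5 h had a median of -1.77, with 83 transcripts below -1 and 99 below 0; the exception was AK134159 at 0.19. Among all AK and uc0 probes the median was 0.12 and 5.07% lay below -1. On slide 3, 12 h minus 24 h had a median of -1.51, with 64 transcripts below -1 and 96 below 0, where all AK and uc0 probes had a median of 0.25 and 5.01% below -1. In 61 transcripts the 12 h level was lower by more than 1 log2 unit within both slides, as it was in 2.47% of all AK and uc0 probes. The difference was over 1 on slide 2 alone in 22, on slide 3 alone in 3 and on neither in 14, among them AK011216, AK134159 and, picked after its values were seen, AK018420. These contrasts use the 12 h arrays that chose the 100 and so describe them only.

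**Figure D3:**
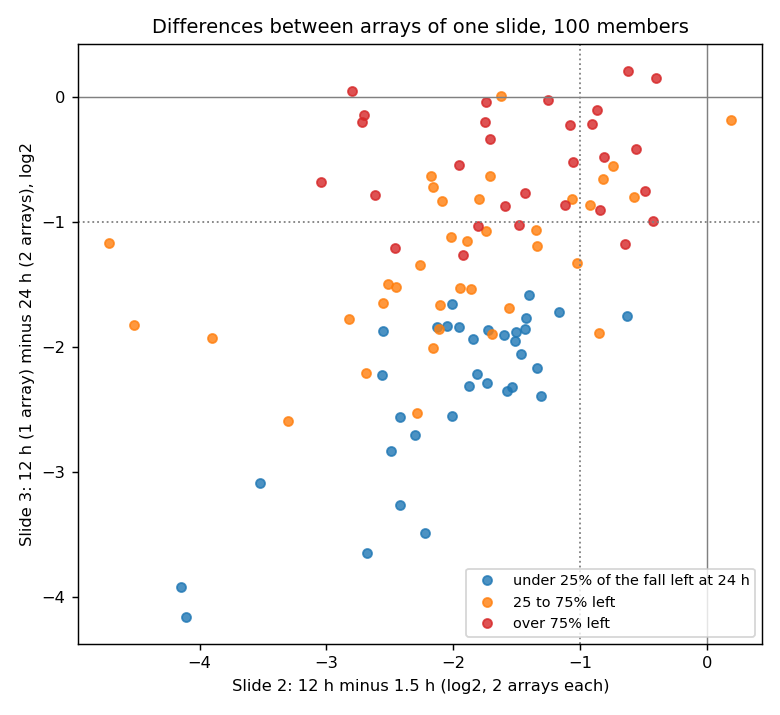
Each point is 1 of the 100 transcripts, with 12 h minus 1.5 h on slide 2 (horizontal) against 12 h minus 24 h on slide 3 (vertical), both log2; dotted lines mark -1 and colours the share of the fall left at 24 h. 61 points lie below -1 on both axes, and the 29 points with over 75% of the fall left lie between -1.27 and 0.21 on slide 3, 5 of them below -1.

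The transcripts differed in how far they lay from their 0 h level at 24 h. Their median difference from 0 h was -1.15, against 0.083 for all AK and uc0 probes. The share of the 12 h fall left at 24 h ran from -32.5% to 107.3% with a median of 48.8%. The rule admits no transcript whose change on the authors' values is larger at 24 h than at 12 h, which limits this share from above. The share was under 25% in 34 transcripts, between 25% and 75% in 37 and over 75% in 29. Values were spread over the whole range, and the limits of 25% and 75% were set for description.

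The 34 that returned had a median difference of -2.35 at 12 h and -0.37 at 24 h. uc008sjd went past its starting level: in time order it was at 3.15, 2.78 and 2.84 at 0 h, at 2.72, 2.77 and 2.47 at 1.5 h, at 0.48, 0.31 and 0.27 at 12 h and at 3.99 and 3.53 at 24 h. Both 24 h arrays lay above all 0 h arrays. uc008atc, AK017223 and uc009moc were also above their 0 h means at 24 h, by 0.38, 0.21 and 0.19. In all, 7 of the 100 were above their 0 h mean at 24 h.

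The 29 that did not return had medians of -2.21 at 12 h and -1.97 at 24 h. Of these, 19 carried AK identifiers and 10 uc0, and 9 of the 13 transcripts that split by slide at 1.5 h were among them. AK081716, with the largest share left, was at -0.58, -0.54 and -1.73 at 0 h, at -0.56, -0.25 and -1.43 at 1.5 h, at -2.96, -2.21 and -3.08 at 12 h and at -3.06 and -2.71 at 24 h. The 24 h livers lay within the 12 h range. AK018474, AK042416 and AK134814 had 106.1%, 104.7% and 103.3% left. The 24 h arrays of AK134814 did not agree, at -2.54 and -4.32 on replicates 1 and 3 and -1.29 on replicate 2. Its 12 h levels were -2.98, -3.48 and -3.65. AK081716, AK018474 and AK042416 had a 0 h replicate 3 more than 1 log2 unit below the other 0 h arrays, so their 0 h groups were wide.

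**Figure D4:**
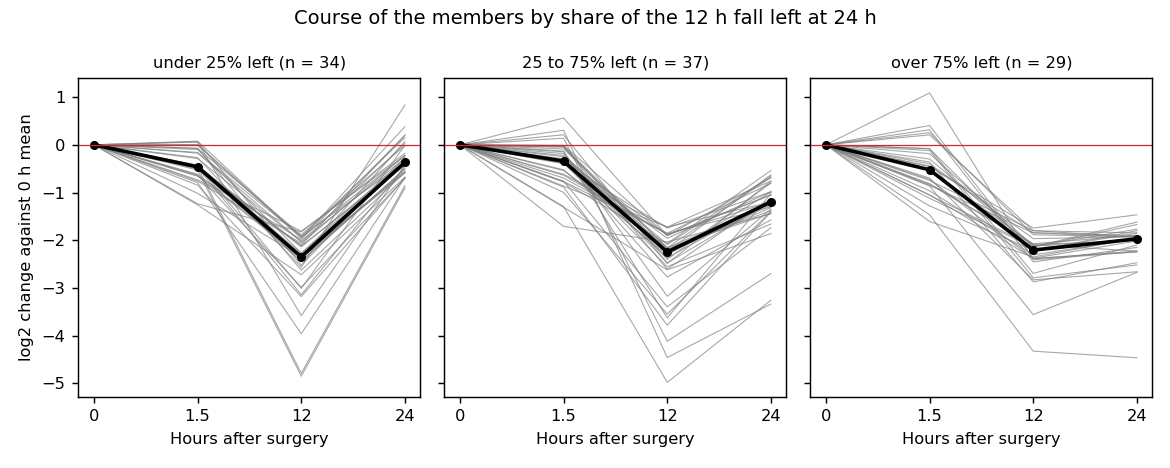
Log2 change against the 0 h mean at 0, 1.5, 12 and 24 h (24 h replicates 1 and 3) for the 34, 37 and 29 transcripts with under 25%, 25 to 75% and over 75% of the 12 h fall left at 24 h; grey lines are transcripts, black lines their medians. The 3 groups were cut by the share left at 24 h, so their medians there (-0.37, -1.20 and -1.97) part by construction. Their medians at 12 h, the change by which all were chosen, were -2.35, -2.25 and -2.21.

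The 24 h replicate 2 array was not used by the rule. On it 75 of the 100 lay below their 0 h mean with a median difference of -0.75, and 71.7% of all AK and uc0 probes did so with a median of -1.09. By share of the fall left on the other 24 h arrays, the medians on replicate 2 were -0.27 in the 34, -1.01 in the 37 and -1.09 in the 29. Among the 29, replicate 2 was near the 0 h level in some transcripts and far below it in others. For example, uc008qku was at 1.97, against a 0 h mean of 2.02, and AK090394 at -2.96, against 1.19. Both were picked after their values were seen. Of these, uc008qku was among the transcripts that split by slide at 1.5 h and AK090394 was not. Replicate 2 lay alone on slide 4, so mouse and slide cannot be told apart in its values.

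Some of the 100 closely followed the probe of a protein-coding gene. For each transcript the course over the 12 arrays, centred on its own mean, was set beside those of 14426 coding probes that were well above background on all arrays. In 16 of the 100 the nearest coding probe differed by less than 0.25 log2 units on every array, although the median range of the 100 over the arrays was 3.12. In those 16 the next coding gene differed by 0.276 to 0.915 on at least 1 array. Among all AK and uc0 probes, whose median range was 2.38, 45.2% had a coding probe and 31.1% a second coding gene within 0.25. A near coding course was thus less frequent among the 100 than among all AK and uc0 probes. The part of the range in this was not tested. The limit and this comparison were chosen after the values were seen.

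The nearest pair was AK144566 and Sbk1, a serine/threonine kinase gene, which differed by at most 0.088. AK144566 was at -1.43, -0.65 and -0.77 in the 12 h livers, against 1.11, 1.52 and 2.42 in the 0 h livers. Sbk1 was at -1.43, -0.62 and -0.76 in the 12 h livers, against 1.20, 1.58 and 2.45 in the 0 h livers. The pair was chosen by its largest difference over the 12 arrays, so likeness in the scatter among mice of one time follows from the choice. uc008kuq followed Madd, which encodes an activator of Rab GTPases, within 0.10.

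The other coding partners have varied known roles. AK017223 followed Sgms2, a sphingomyelin synthase, within 0.122, and AK014047 followed Lipg, endothelial lipase, within 0.142. uc007yxm followed Bdh1, which interconverts the ketone bodies, within 0.173, and uc009jlg followed Acsm5, of the medium-chain acyl-CoA synthetase family, within 0.191. uc009nhh followed Cyb5b, the outer mitochondrial membrane cytochrome b5, within 0.127. AK134814 followed Ptprg, a receptor tyrosine phosphatase, uc008atc followed Pkmyt1, a kinase that inhibits Cdk1, and AK030326 followed Lin7a, a scaffold protein, within 0.128, 0.128 and 0.133.

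**Figure D5:**
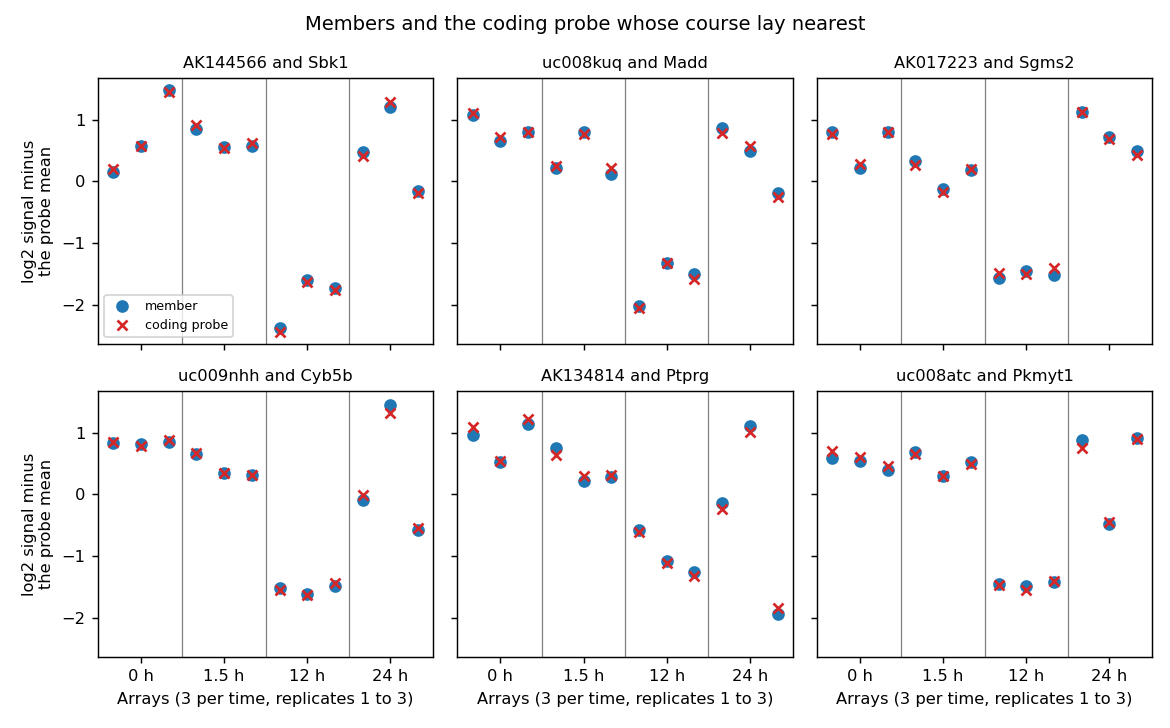
Log2 signal minus the probe's own mean on the 12 arrays (in order of time and replicate) for the 6 transcripts with the nearest coding probe (circles) and for that coding probe (crosses). The symbols overlie on every array, with differences of at most 0.128. The coding probes were chosen by this difference over the 12 arrays.

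AK047204 followed Usp2, a ubiquitin-specific protease gene whose expression follows the circadian clock, within 0.215. Usp2 was at -0.90, -0.99 and -1.08 in the 12 h livers, against 3.11, 3.59 and 3.74 in the 0 h livers. The next gene for AK047204 was Dbp, a clock-controlled transcription factor, at 0.915. AK009518 followed Tef, of the same transcription factor family as Dbp, within 0.220. The remaining pairs with a symbol were uc008tft with Col27a1 (0.134), a fibrillar collagen, uc007cpz with Plekha6 (0.136) and AK007207 with Vps9d1 (0.192). Whether the paired probes lie in one locus or read one RNA was not tested.

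4 pairs among the 100 had identifiers that differ in the last letter only, which were picked after their values were seen. uc009kip and uc009kir were the closest, differing by between -0.15 and 0.055 on every array. uc009kip was at 1.55, 0.83 and 1.65 in the 12 h livers, against 3.90, 3.61 and 3.37 in the 0 h livers. The other pairs moved apart on some arrays: the difference ranged over 1.15 between uc009moc and uc009mos, 2.35 between uc008xkb and uc008xkd and 3.18 between uc008ejg and uc008eju. uc008ejg was lower at 12 h by 2.40 and uc008eju by 4.12 log2 units.

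6 of the 51 AK transcripts had identifiers starting with AK050, AK050122, AK050399 and AK050412 among them. The authors' table held 39 such probes, of which 15.4% were on the list. The median 12 h difference of those 39 was 0.065. This grouping was picked after the values were seen and was not tested.

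The median course of the 100 was also set beside 12162 coding genes, by the largest absolute difference at 1.5, 12 and 24 h. The nearest was Cyb5b at 0.095, with changes of -0.39, -2.37 and -1.11 at 1.5, 12 and 24 h. Ubr2, a ubiquitin ligase gene, followed at 0.103 and Dpysl2, which encodes a cytoskeletal regulator of nerve cells, at 0.109. Tfdp2, a partner of E2F transcription factors, differed by 0.116, Fam102a by 0.129 and Prkaa2, a catalytic subunit of AMP-activated kinase, by 0.134. These genes were chosen for their likeness, so their courses carry no test.

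Genes of RNA decay are not among the 100 and were tested at 12 h against 0 h in the limma fit over all probes. Of 54 measured, 4 rose and 3 fell, and 47 did not pass. Those that rose and fell are 7.41% and 5.56%, beside 7.06% of all probes higher and 8.26% lower. The median difference of the 54 was -0.046, beside 0.42 for all probes and 0.24 for the coding probes kept. Without 24 h replicate 2 the shares were 20.4% and 20.4%, beside 32.6% and 16.6%. In the exosome list 3 of 25 rose and 3 fell, in the decapping list 1 of 19 rose and none fell, where 3 were lower at an unadjusted p under 0.05. In the nonsense-mediated decay list 0 of 10 passed in limma, and 1 was higher at an unadjusted p under 0.05.

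Tent4a, a noncanonical poly(A) polymerase that tags nuclear RNAs, fell most. It was at -1.99, -1.19 and -1.87 in the 12 h livers, against 0.25, 0.51 and 0.95 in the 0 h livers, a difference of -2.25 ± 0.45 (SE, limma adjusted p = 0.00808). Dis3l, the exonuclease of the cytoplasmic exosome, fell by 0.97 ± 0.27 (limma adjusted p = 0.0328), and its other probe differed by -0.99 without passing (limma adjusted p = 0.0963). Zcchc8, the scaffold of the nuclear exosome targeting complex, fell by 1.17 ± 0.29 (limma adjusted p = 0.0217) but was dim, well above background on 2 arrays of each group, and its difference was 0.38 after normexp background correction.

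The 4 genes that rose were 2 subunits of the exosome core, 1 exosome-associated protein and 1 protein linked to decapping. Exosc3 differed by 1.03 ± 0.28 and Exosc1 by 0.81 ± 0.24 (limma adjusted p = 0.0325 and 0.0438), both core subunits that bind RNA. Mphosph6, an exosome-associated protein, differed by 1.68 ± 0.41 (limma adjusted p = 0.0194) and Pnrc1, which binds nuclear receptors and decapping factors, by 1.72 ± 0.52 (limma adjusted p = 0.047). These calls depended on single arrays, as did those over all probes. With 1 array at 0 h or 12 h left out, 3.03% to 4.72% of all probes passed as higher and 4.18% to 5.76% as lower. No decay gene passed as higher when 0 h replicate 1, 0 h replicate 2, 12 h replicate 1 or 12 h replicate 3 was left out (7, 7, 9 and 8 at an unadjusted p under 0.05), 1 passed on leaving out either 1.5 h array of slide 2, and 2 on leaving out 0 h replicate 3 or 12 h replicate 2. Leaving out 24 h replicate 2 gave 11 that rose and 11 that fell. The count that fell was 1 on leaving out 0 h replicate 2, 0 h replicate 3, 12 h replicate 1 or 12 h replicate 3. With slide as a block 0 rose (8 at an unadjusted p under 0.05) and 1 fell, beside 2.13% of all probes higher and 2.02% lower.

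Markers of other cell types moved with the 12 h group. In limma, 6 of 7 measured neutrophil markers rose, among them S100a8, a calcium-binding protein of neutrophils, by 4.94 ± 0.29 (SE, limma adjusted p = 1.41e-05). The summed level of the list, relative to the 75th percentile signal of the array, was 31.8 to 41.0 in the 12 h livers, against 1.08 to 1.72 in the 0 h livers. Of 6 adipose markers 5 rose, among them Fabp4, a fatty acid carrier, by 2.96 ± 0.32 (SE, limma adjusted p = 0.000331), and the sums were 17.6 to 21.8 in the 12 h livers, against 0.623 to 0.948 in the 0 h livers. The brightest of these at 12 h was Cidec, at 3.71, 3.96 and 4.26 in the 12 h livers, so the sums lean on this gene. Adipoq did not pass (0.73 ± 0.34, SE, limma adjusted p = 0.158). Ngp, Mmp8 and Cxcr2 of the first list and Plin1, Cfd and Lep of the other were not well above background on any 0 h array, so the 0 h sums partly hold background. Hepatocyte markers moved both ways. Fgb, a fibrinogen chain, rose by 2.25 ± 0.41 and Ttr, transthyretin, fell by 1.93 ± 0.28 (SE, limma adjusted p = 0.00511 and 0.0016), while the other 5 of 7 did not pass. The summed hepatocyte level was 2151, 1674 and 1161 in the 12 h livers, against 877.6, 973.7 and 962.5 in the 0 h livers. These sums include Fgb, at 9.6, 9.0 and 8.8 in the 12 h livers, against 6.8, 6.9 and 7.0 in the 0 h livers. They are carried by the brightest genes and do not show a rise across the list. Macrophage, endothelial, stellate, bile duct, lymphocyte and erythroid lists had 1, 1, 0, 1, 0 and 0 genes that rose of 7, 8, 8, 5, 7 and 4, and 2, 1, 1, 0, 1 and 0 that fell. At an unadjusted p under 0.05 the stellate and lymphocyte lists had 1 higher gene each, the bile duct list 0 lower and the erythroid list 0 in either direction. The part of these cells in the fall of the 100 was not tested.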

How the data were processed

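Each 1-colour array was read with Feature Extraction (Agilent, version 10.5.1.1), which per the file headers wrote the deposited processed intensity per spot (background-subtracted, linear scale), the spot and background median intensities and quality marks. The authors also deposited log2 values for 20271 probes; the normalization behind them is not given in the sources used here, their column medians are 8.91 to 8.94, and they served to choose the 100 transcripts and as an alternative. Array numbers limit the precision: 3 per time point, and p-values measure only the spread between these samples.

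From the processed intensity, outlier spots were dropped, spots of 1 probe averaged, and log2 taken minus the array's 75th percentile. 20 negative control probes (200 spots) were left out. Probes well above background on at least 3 of 12 arrays were kept (31168 of 37246). limma 3.58.1 in R 4.3.3 fitted 1 mean per time point to all 12 arrays, with two-sided tests and Benjamini-Hochberg adjustment over all probes kept (threshold 0.05), and was tested on simulated data. A gene was read from its brightest probe. Slides were inferred from scan time and array position in the headers.

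The 100 transcripts and the gene lists were chosen with earlier results of these data known. The text names the 12 most negative transcripts, the edge of the list, the extremes at 0, 1.5 and 24 h, decay genes past the threshold and the 6 coding genes nearest to the median course; others are marked as picked after their values were seen, as are the coding partners. Same-numbered 12 h and 0 h arrays did not deviate together (r = -0.053, 0.038 and 0.067), so numbers were not taken to pair samples. Planned steps on other probes of the same symbol and on promoters had no transcript with a symbol to act on and were not run.

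Alternatives were quantile normalization, normexp (offset 50), the authors' values, other filters, the replicate number or slide as a block, only the groups compared, and each array left out in turn.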

Additional observations from a re-analysis of the deposited data

How the results depend on the processing

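Processing moved counts more than directions. The median 12 h difference of the 100 transcripts moved by more than the spread between replicates only under normexp, to -1.35. The number of the 100 passing as lower was 42 both under normexp and with slide as a block. Normexp also left 70.3% of the fall at 24 h (median) and 27 transcripts lower by more than 1 within both slides. The offset of 50 in normexp compresses dim signals. Over all probes, 742 were lower and 321 higher under normexp, 630 and 665 with slide as a block and 5060 and 10527 with only the groups compared. With 1 array left out, lower calls ranged from 1303 to 5170 and higher calls from 943 to 10172, the highest of each without 24 h replicate 2.

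Among RNA decay genes, normexp left 0 lower and 0 higher in limma (6 and 3 at an unadjusted p under 0.05), slide as a block 1 and 0, and only the groups compared 9 and 12. Higher decay calls were 8 under quantile normalization, 9 on the authors' values and 2 with no filter. With 1 array left out they ranged from 0 to 11 and lower calls from 1 to 11. Zcchc8 turned to 0.377 under normexp. With the replicate block, 2083 probes were lower and 1520 higher, 92 of the 100 passed, and decay calls were 2 lower and 1 higher. The cause of these shifts was not tested.

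Reapplying the rule to the 75th-percentile values shared 84 of the 100 transcripts, to quantile-normalized values 99, with 24 h replicate 2 included 94, and with a 0 h or 12 h array left out 86 to 90. Of the 16 transcripts with a near coding course, 15 kept the same nearest gene under quantile normalization, on the authors' values and without 24 h replicate 2, and 14 under normexp; these alternatives were chosen after seeing the data, as were those for the share left at 24 h and within slides. All 100 had 1 spot each, so no second probe checks them.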

Other observations

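Outside the authors' table, AK019073 and uc007uno also lay far below their 0 h levels at 12 h, and both were picked after their values were seen. AK019073 was at -8.12, -4.28 and -6.22 in the 12 h livers, where 1 of 3 arrays was well above background, against 0.98, -0.39 and -0.74 in the 0 h livers. It stayed low at 24 h, at -6.55 and -6.73 on replicates 1 and 3 and -5.62 on replicate 2. uc007uno was well above background on 0 of 3 12 h arrays and stood at -2.01, -1.90 and -3.08 in the 0 h livers. AK018558, with the most negative change, was at 1.51, 2.32 and 0.33 at 1.5 h and at -0.57 and -0.998 at 24 h. Such transcripts are absent from the list of 100 by its construction.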
